A study of Mus musculus with 12 samples.

Results

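The HOX genes of clusters A to D were followed in cultured fibroblasts of the adventitia, the outermost coat of the aorta. The members were chosen by gene symbol, as genes named *Hox* with a cluster letter and a paralogue number, and 38 of the 54352 gene symbols in the count table are described. Of these 38, 10 lie in cluster A, 10 in cluster B, 9 in cluster C and 9 in cluster D. The cells were grown from C57Bl/6 mice labelled WT and 14 weeks old, while the study's methods name 6 male mice of a younger age as the source of tissue from both sites. Ascending cells came from the aortic root and ascending aorta and descending cells from the descending aorta down to the renal arteries. Each site was studied as control, at 0 ng/mL of TGFβ, and with TGFβ at 10 ng/mL for 48 h, in 3 libraries per combination, which gives ascending control, ascending TGFβ, descending control and descending TGFβ. The adventitia was peeled from the media, the cells were grown out in serum and passaged, and the sources do not say which animals gave which culture, nor whether animals were pooled.

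HOX genes encode homeodomain transcription factors that give cells their position along the body axis. Within a cluster the genes stand in the order in which they are used from head to tail, so that genes with low paralogue numbers, at the 3' end, mark anterior levels and genes with high numbers, at the 5' end, mark posterior levels. Trithorax and Polycomb complexes hold clusters in open or closed chromatin, TALE homeodomain proteins of the PBX and MEIS families bind DNA together with HOX proteins, and connective tissue cells are known to keep a HOX pattern of their site of origin in culture.

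The descending cultures carried more HOX RNA than the ascending ones, with genes further toward the 5' end of clusters A and B and with *Hoxc4* to *Hoxc9* of cluster C. Cluster D was low at both sites and lower in the descending cells. The summed level of the 38 genes was 102.98 ± 2.84 normalized CPM in ascending control, 110.8 ± 3.87 in ascending TGFβ, 722.8 ± 213 in descending control and 603.1 ± 1.18 in descending TGFβ libraries (SD, n = 3 each). Normalized CPM are gene counts scaled to the library's total after TMM normalization. Genes of paralogue groups 6 to 13 made 9.06% ± 0.186 of that sum in ascending control and 7.71% ± 0.457 in the TGFβ libraries of that site, against 67.0% ± 3.72 and 69.5% ± 0.664 in the descending groups (SD, n = 3 each). In bulk RNA, fewer cells of a type and less RNA per cell cannot be told apart.

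**Figure D1:**
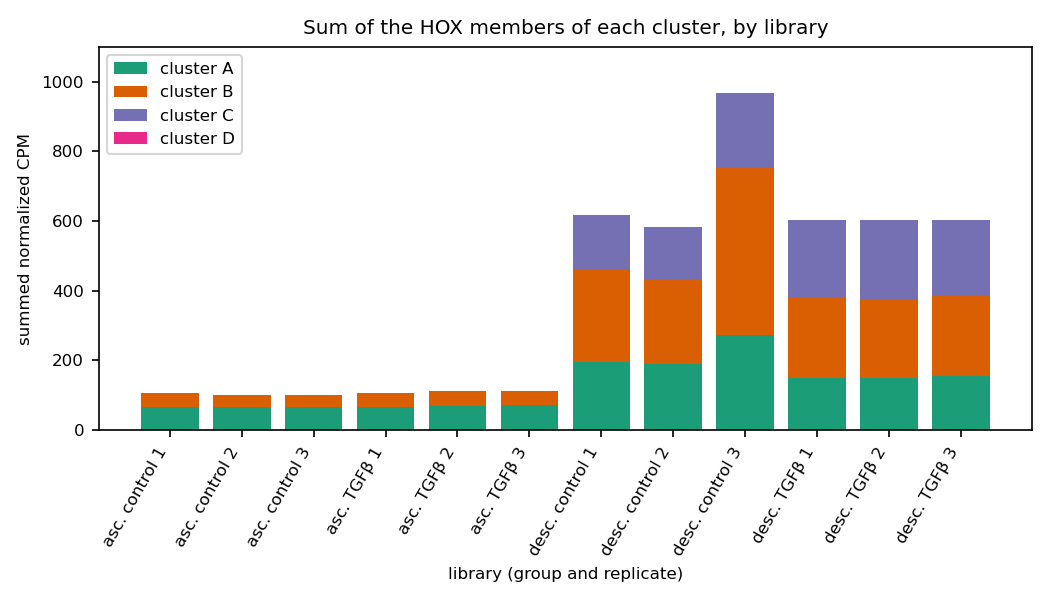
Bars give the summed normalized CPM of the HOX members of each cluster (stacked by colour) in each of the 12 libraries. The ascending libraries reach between 100.96 and 113.1, the descending ones between 582.6 and 968.0, and cluster C is visible at the descending site.

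The libraries held between 16250126 and 23892943 counts on genes, of which 2036 to 2443 fell on HOX members in ascending and 11106 to 15870 in descending libraries. The floor of detection was set at 3 counts in a library, equal to 0.117 to 0.207 normalized CPM, and intervals and floors cover counting error only. The descending control replicate 3 stood apart. It had counts on 13031 genes against 19337 to 20931 in the other libraries, and mitochondrial genes took 11.02% of its counts against 0.703% to 1.03% elsewhere. Its part in the HOX results was followed by leaving it out. Fibroblast markers summed to between 14329 and 26201 normalized CPM in every library, with none of the 8 at the floor.

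Cluster A lies on chromosome 6 of GRCm38 and its members span 52162417 to 52260880 on the minus strand. Cluster B spans 96194316 to 96368256 on chromosome 11, cluster C 102921103 to 103036852 on chromosome 15 and cluster D 74668310 to 74765142 on chromosome 2, all on the plus strand. The 250 bases before the start site are shown for genes at either side of the boundary that the values below describe: *Hoxa2* and *Hoxb4*, with pooled count ratios of descending over ascending of 1.26 and 1.35 in control, *Hoxa5* and *Hoxb8*, which were higher in descending cells, and *Hoxd8*, which had more counts in every ascending than in any descending library. The sequences are from RefSeq (GRCm38.p6), on the strand of the gene, and end at the base before the start site. They lie at chr6:52164832-52165081, chr6:52204588-52204837, chr11:96318017-96318266, chr11:96281655-96281904 and chr2:74704365-74704614. Capitals mark the motif letters named in the next paragraph, on either strand.
Hoxa2: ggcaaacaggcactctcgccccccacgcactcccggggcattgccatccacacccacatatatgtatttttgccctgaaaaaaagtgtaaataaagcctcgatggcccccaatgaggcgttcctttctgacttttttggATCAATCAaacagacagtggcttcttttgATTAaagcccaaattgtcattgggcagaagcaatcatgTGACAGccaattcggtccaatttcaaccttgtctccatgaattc
Hoxa5: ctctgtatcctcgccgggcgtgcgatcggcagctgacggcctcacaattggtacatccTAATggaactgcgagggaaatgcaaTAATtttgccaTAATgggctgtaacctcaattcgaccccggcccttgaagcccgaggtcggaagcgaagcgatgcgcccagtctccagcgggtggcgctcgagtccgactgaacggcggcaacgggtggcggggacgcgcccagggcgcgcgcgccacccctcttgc
Hoxb4: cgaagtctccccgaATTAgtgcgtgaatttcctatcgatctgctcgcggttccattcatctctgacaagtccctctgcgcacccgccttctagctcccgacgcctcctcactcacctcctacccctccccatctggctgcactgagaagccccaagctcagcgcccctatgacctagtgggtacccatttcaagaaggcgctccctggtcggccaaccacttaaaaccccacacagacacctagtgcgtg
Hoxb8: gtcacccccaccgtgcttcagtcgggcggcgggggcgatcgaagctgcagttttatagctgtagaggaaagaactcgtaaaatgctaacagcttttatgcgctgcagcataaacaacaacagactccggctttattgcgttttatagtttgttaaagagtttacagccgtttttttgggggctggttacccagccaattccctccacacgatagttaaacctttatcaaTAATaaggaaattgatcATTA
Hoxd8: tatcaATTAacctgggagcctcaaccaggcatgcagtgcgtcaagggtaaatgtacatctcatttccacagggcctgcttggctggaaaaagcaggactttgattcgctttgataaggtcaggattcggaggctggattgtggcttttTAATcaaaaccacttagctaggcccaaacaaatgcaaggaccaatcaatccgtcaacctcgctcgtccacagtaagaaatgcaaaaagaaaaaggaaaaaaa

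Of the 38 members, 22 had a promoter window in that table, in 24 windows. The letters searched, on both strands, were TGATTNAT for PBX with HOX, TGACAG for MEIS and PREP, TTTATGG for posterior HOX and CDX proteins, GTCTAGAC for SMAD proteins, which carry the TGFβ signal, and TAAT, the core that homeodomains bind and that can overlap the first motif. TGATTNAT stood in 2 of the 24 HOX windows (8.33%) and in 2.82% of 32851 windows of all genes. TGACAG stood in 2 (8.33%, against 15.9%), TTTATGG in 1 (4.17%, against 2.43%) and GTCTAGAC in 0 (against 0.167%). The *Hoxa2* window held both a TGATTNAT match, as ATCAATCA on the other strand, and a TGACAG match. The TAAT core stood in 18 HOX windows (75.0%, against 54.9%), with 3 matches in *Hoxa5* and 2 each in *Hoxb8* and *Hoxd8*. The median GC content was 58.6% in HOX windows and 52.4% in all. A match is a description of these letters and not of a bound site.

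Counted over all libraries, 9 of the 38 genes had no count and 4 stayed at or under the floor. The 9 were *Hoxa11*, *Hoxa13*, *Hoxb1*, *Hoxc11*, *Hoxc12*, *Hoxd1*, *Hoxd10*, *Hoxd11* and *Hoxd12*, and the 4 were *Hoxb13*, *Hoxd3*, *Hoxd4* and *Hoxd13*. *Hoxa10*, *Hoxc10* and *Hoxd9* passed the floor in some libraries of a group or site only, and *Hoxc10* had 19 counts in descending control replicate 3 against 0 to 2 in the other libraries. Genes over the floor in all 3 libraries of a group numbered 12 in ascending control, 13 in ascending TGFβ, 20 in descending control and 21 in descending TGFβ.

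**Figure D2:**
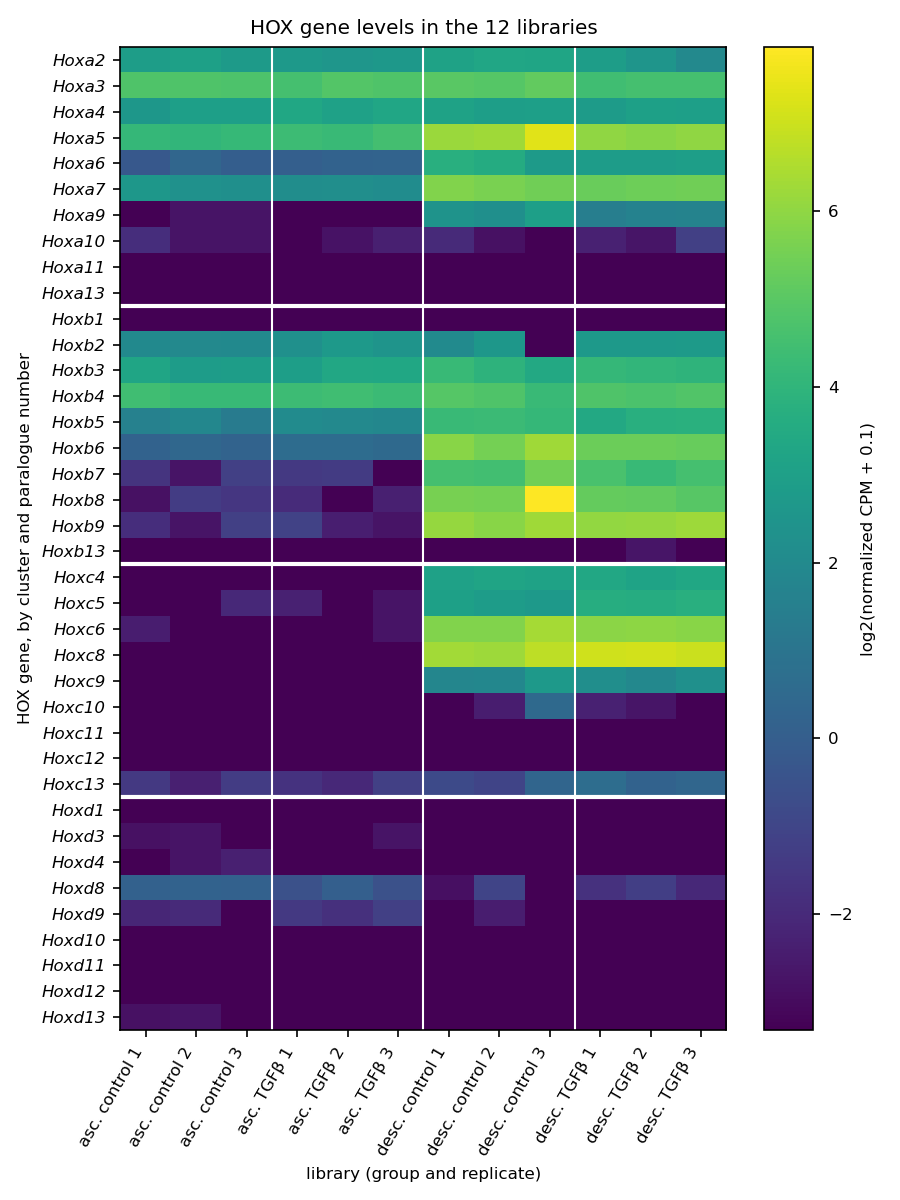
Colour gives log2(normalized CPM + 0.1) of each of the 38 HOX members (rows, by cluster and paralogue number) in each of the 12 libraries (columns, 3 per group). Paralogues 2 to 5 of clusters A and B are lit at both sites, paralogues 4 to 9 of cluster C at the descending site, and cluster D stays dark apart from a low level of *Hoxd8* in the ascending libraries.

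The first question was how the sites differ, asked separately without and with TGFβ. Without TGFβ, 14 of the 21 HOX members that could be tested were higher in descending cells and 0 were higher in ascending cells, in edgeR's quasi-likelihood test with a Benjamini-Hochberg adjusted p under 0.05, where 2.65% of 14090 genes were called in either direction (1.19% higher in ascending and 1.47% in descending). With TGFβ, 17 of 22 tested members were higher in descending cells and 2, *Hoxa3* and *Hoxd8*, in ascending cells, where 36.3% of 13678 genes were called (18.2% higher in descending and 18.1% in ascending). *Hoxa9*, *Hoxb7* to *Hoxb9*, *Hoxc4* to *Hoxc6*, *Hoxc8*, *Hoxc9* and *Hoxc13* passed the filter on low counts through the descending libraries alone and *Hoxd8* through the ascending ones. These genes had to differ to be tested at all, and their calls add nothing to the values. Of the 11 members over the floor at both sites, 5 were called in control, all higher in descending cells, and 8 with TGFβ, 7 of them higher in descending cells. The median log2 fold change of these 11, ascending against descending, was -0.87 in control and -0.81 with TGFβ, against 0.04 and 0.00 over all genes tested. Without descending control replicate 3, 18 members were called in control (17 higher in descending and 1 in ascending), where 31.6% of all genes were called. With TGFβ the fit of all 12 libraries called 16 members and 1106 genes in all, against 4963 genes above. In control, leaving out descending replicate 1 or 2 gave 8 members each (108 and 77 genes in all, against 374), and leaving out ascending replicate 1, 2 or 3 gave 6, 8 and 6 (33, 43 and 33 genes).

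In cluster A the paralogues 2 to 4 were read at both sites at levels within 1.5-fold of each other. *Hoxa2*, the anterior-most member here, which patterns the hindbrain and branchial arches, ranged from 5.82 to 7.996 normalized CPM in ascending and from 3.78 to 9.85 in descending libraries, and the sites overlapped. *Hoxa3*, a gene of pharyngeal arch derivatives, was at 27.3, 27.1 and 26.9 normalized CPM in ascending control and at 32.3, 29.8 and 35.7 in descending control (adjusted p = 0.471 by edgeR's quasi-likelihood test). With TGFβ it was at 23.98, 29.01 and 27.9 in ascending and at 21.5, 23.9 and 23.7 in descending libraries, a log2 fold change of 0.23 (SE 0.08, adjusted p = 0.0211 from the same test). The call with TGFβ was made in 6 of 11 alternative settings, and was lost by DESeq2's Wald test, in the fit of 12 libraries and without descending TGFβ replicate 1 or ascending TGFβ replicate 2 or 3. The difference in control did not pass. Exons of other genes cover 27.1% of its exon bases, mostly on the opposite strand. *Hoxa4* was at 6.04, 7.90 and 7.80 normalized CPM in ascending control, 10.03, 8.47 and 9.70 in ascending TGFβ, 8.72, 7.64 and 7.87 in descending control and 7.04, 8.03 and 7.94 in descending TGFβ libraries, and did not pass the test between sites (adjusted p = 0.729 in control and 0.0586 with TGFβ).

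From *Hoxa5* to *Hoxa9*, cluster A was higher in descending cells. *Hoxa5*, which acts in lung and cervicothoracic patterning, was at 17.3, 16.4 and 18.2 normalized CPM in ascending control and at 73.0, 78.1 and 163 in descending control libraries, and the highest value was that of replicate 3. Its log2 fold change was -2.59 (SE 0.36, adjusted p = 0.0227 by edgeR's quasi-likelihood test) in control and -1.59 (SE 0.07, adjusted p = 6.89e-18) with TGFβ, at 20.3, 19.1 and 22.7 against 63.8, 58.8 and 64.6. The control calls of *Hoxa5*, *Hoxa6* and *Hoxa9* were lost when any ascending control library or descending control replicate 1 or 2 was left out, with adjusted p of up to 0.176, 0.120 and 0.115 over all settings, while those of *Hoxa7* and *Hoxb6* were kept in each of these fits. That of *Hoxb5* was lost without ascending control replicate 1 or 3. *Hoxa6* stood at 0.739, 1.20 and 0.926 normalized CPM in ascending control, at 0.940, 1.04 and 1.07 in ascending TGFβ, at 13.4, 11.8 and 6.69 in descending control and at 7.10, 7.27 and 7.57 in descending TGFβ libraries, so that replicate 3 held the lowest descending control value here. *Hoxa7*, a trunk-level gene, stood at 5.91, 4.90 and 4.63 in ascending control, at 4.44, 4.54 and 4.24 in ascending TGFβ, at 53.0, 49.2 and 43.3 in descending control and at 40.1, 42.3 and 44.0 in descending TGFβ. No ascending library reached a descending one for these 3 genes. The log2 fold changes were -3.47 (SE 0.38) and -2.83 (SE 0.19) for *Hoxa6* and -3.23 (SE 0.17) and -3.25 (SE 0.09) for *Hoxa7*, in control and with TGFβ. Exons of the antisense gene *Hoxaas3* cover 20.4% of the exon bases of *Hoxa7*, and the strand setting of the counting is not stated. *Hoxa9*, known from limb, kidney and blood development, had 2 counts over the 3 ascending controls and 0 over the 3 ascending TGFβ libraries. In descending control libraries it was at 5.22, 4.69 and 7.93 normalized CPM and in descending TGFβ libraries at 2.65, 3.04 and 3.12. That is a pooled count ratio of 179 (95% counting interval 49.3 to 1487) in control, and at least 19.8-fold higher with TGFβ, against a floor of 3 counts per library.

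In cluster B *Hoxb3* and *Hoxb4* differed between sites with TGFβ and *Hoxb2* did not pass the test. *Hoxb2*, a hindbrain gene, was at 3.91, 3.80 and 3.85 normalized CPM in ascending control and 4.75, 6.34 and 5.46 in ascending TGFβ libraries, at 6.38, 6.45 and 6.76 in descending TGFβ, and at 4.05, 5.90 and 0 in descending control, where replicate 3 had no count. It did not pass the test between sites in control (adjusted p = 0.936) or with TGFβ (adjusted p = 0.213). *Hoxb3* was at 9.52, 7.25 and 7.31 in ascending control, 7.63, 10.4 and 10.04 in ascending TGFβ, 18.3, 15.1 and 10.7 in descending control and 17.3, 16.3 and 15.6 in descending TGFβ libraries. In control 16% and with TGFβ 23.0% of all genes tested had every descending value above every ascending one. Every descending value of *Hoxb3* lay above the ascending values of its treatment, and the log2 fold change was -0.87 (SE 0.25, adjusted p = 0.203) in control and -0.81 (SE 0.11, adjusted p = 5.30e-07) with TGFβ. Exons of *Hoxb3os* cover 52.9% of the exon bases of *Hoxb3*. *Hoxb4*, known for its role in blood stem cells, was at 21.8, 18.4 and 18.6 in ascending control and 30.1, 27.6 and 19.3 in descending control libraries, where replicate 3 was the lowest and overlapped. With TGFβ it was at 20.5, 21.5 and 19.4 in ascending and at 27.3, 26.1 and 28.3 in descending libraries, a log2 fold change of -0.41 (SE 0.07, adjusted p = 4.75e-05), which did not pass in the fit of 12 libraries (adjusted p = 0.176). Without descending control replicate 3, *Hoxa3*, *Hoxb3* and *Hoxb4* also passed the test in control (log2 fold changes of -0.18, -1.04 and -0.54).

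Further along cluster B the sites parted by steps. *Hoxb5* was at 2.96, 3.55 and 2.39 normalized CPM in ascending control, 4.07, 3.74 and 3.51 in ascending TGFβ, 19.3, 19.6 and 17.7 in descending control and 10.8, 13.3 and 13.7 in descending TGFβ libraries. *Hoxb6* was at 1.04, 1.25 and 1.07 in ascending control and at 58.2, 46.2 and 77.4 in descending control libraries, and with TGFβ at 1.46, 1.47 and 1.32 against 41.1, 40.5 and 38.7. The log2 fold changes were -2.66 (SE 0.21) and -1.74 (SE 0.13) for *Hoxb5* and -5.75 (SE 0.28) and -4.82 (SE 0.11) for *Hoxb6*, in control and with TGFβ, and no ascending library reached a descending one. *Hoxb7*, *Hoxb8* and *Hoxb9*, which pattern the thoracic level, lay near the floor in the ascending cells, with 0 to 7 counts per library. *Hoxb7* was at 23.7, 22.0 and 44.3 normalized CPM in descending control and 24.9, 18.4 and 23.9 in descending TGFβ. *Hoxb8* was at 48.0, 46.3 and 234 in descending control and 37.1, 35.7 and 30.8 in descending TGFβ, the largest departure of replicate 3 among the HOX members over the floor in every descending library. *Hoxb9* was at 67.4, 59.3 and 78.3 in descending control and 67.0, 69.2 and 75.5 in descending TGFβ. Pooled count ratios in control, descending over ascending, were 0.984 for *Hoxb2*, 1.90 for *Hoxb3*, 1.35 for *Hoxb4*, 6.43 for *Hoxb5*, 52.1 for *Hoxb6*, 136 for *Hoxb7*, 476 for *Hoxb8* and 354 for *Hoxb9*. The 95% counting intervals were 41.2 to 66.9 for *Hoxb6*, 79.3 to 256 for *Hoxb7*, 272 to 922 for *Hoxb8* and 203 to 687 for *Hoxb9*, so those of *Hoxb8* and *Hoxb9* overlapped. Without descending control replicate 3 the log2 fold change of *Hoxb8* in control moved from -9.12 to -7.91, and without ascending control replicate 3 that of *Hoxb9* from -8.45 to -9.13. With TGFβ, without ascending TGFβ replicate 1, they moved from -8.61 to -9.31 and from -8.69 to -9.82.

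**Figure D3:**
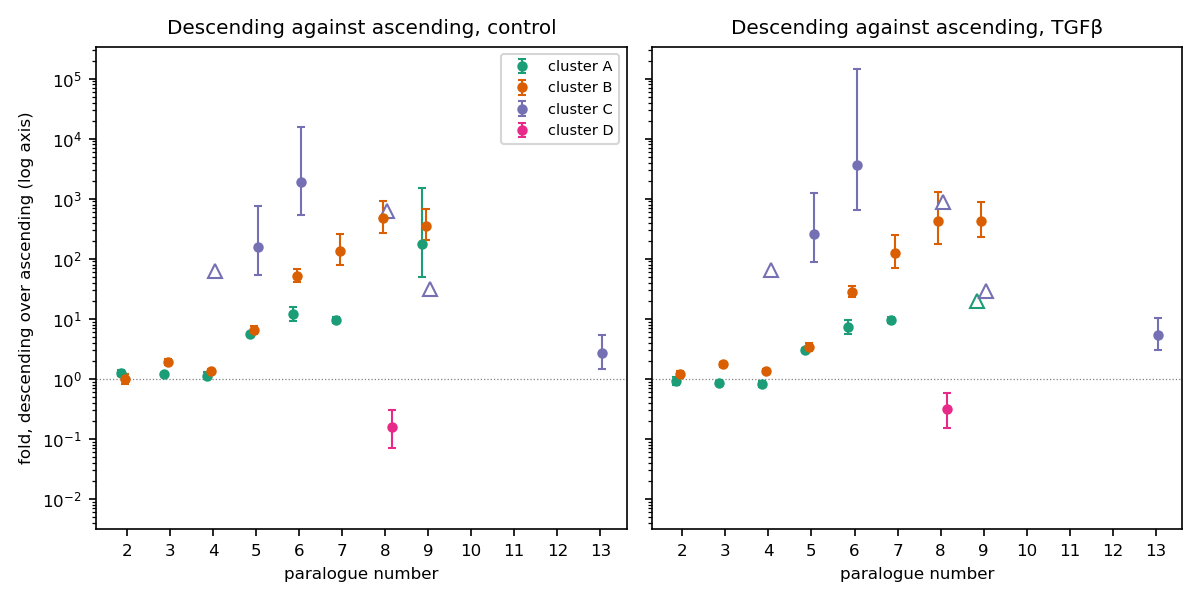
The fold of descending over ascending (log axis) is plotted against the paralogue number in control (left) and TGFβ (right) libraries. Points are pooled count ratios with 95% counting intervals. Where the ascending libraries had no count, open triangles give a lower bound against the floor. Genes at or under the floor at both sites are left out, as are *Hoxa10*, *Hoxc10* and *Hoxd9*, which passed it in some libraries only. In control, paralogues 2 to 4 of clusters A and B lie between 0.984 (*Hoxb2*) and 1.90 (*Hoxb3*), *Hoxa5* and *Hoxb5* at 5.52 and 6.43, and *Hoxc4* to *Hoxc9* at 31.2 or more, while the lowest bound of those with TGFβ is 29.2.

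Cluster C gave the sharpest contrast. *Hoxc4*, *Hoxc8* and *Hoxc9* had no count in any of the 6 ascending libraries, *Hoxc5* had 0 to 3 and *Hoxc6* 0 to 2 counts per ascending library. *Hoxc4* was at 8.45, 9.11 and 8.69 normalized CPM in descending control and 10.5, 8.84 and 9.98 in descending TGFβ libraries, at least 61.5-fold and 65.9-fold higher than the floor of the ascending libraries. *Hoxc6* was at 53.2, 53.1 and 81.9 in descending control and 60.1, 63.0 and 58.5 in descending TGFβ libraries. *Hoxc8*, a thoracic gene, was at 80.4, 75.8 and 106 in descending control and 134, 138 and 127 in descending TGFβ libraries, at least 616-fold higher without and 896-fold higher with TGFβ, against the ascending floor. *Hoxc9* was at 3.46, 3.56 and 6.28 in descending control and 4.49, 3.63 and 4.87 in descending TGFβ libraries, at least 31.2-fold and 29.2-fold higher. *Hoxc5* was at 8.10, 7.07 and 6.62 in descending control and 12.5, 11.98 and 13.1 in descending TGFβ libraries, pooled count ratios of 156 (95% counting interval 53.2 to 761) and 254 (86.7 to 1237). All 3 ascending control counts of *Hoxc5* lay in replicate 3, and without that library its fitted log2 fold change in control moved from -7.08 to -10.27. That of *Hoxc6* moved from -10.72 to -13.35 without ascending control replicate 1, and with TGFβ from -11.38 to -13.23 without ascending TGFβ replicate 3 and that of *Hoxc5* from -7.82 to -8.70 without ascending TGFβ replicate 1. A transcript of *Hoxc5* shares 5.37% of its exon bases with *Hoxc10*. *Hoxc13*, which acts in hair and nail, was separate from this block: it had 2 to 7 counts in ascending libraries, and lay at 0.09995 to 0.3411 normalized CPM there, 0.467, 0.391 and 1.17 in descending control and 1.48, 1.03 and 1.18 in descending TGFβ, pooled count ratios of 2.73 (95% counting interval 1.44 to 5.45) in control and 5.36 (3.00 to 10.3) with TGFβ.

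Cluster D was nearly silent, with a summed level of 1.23 ± 0.115 normalized CPM in ascending control and 0.172 ± 0.265 in descending control (SD, n = 3 each). *Hoxd8* made up most of it. Its counts were 23, 21 and 21 in ascending control, 11, 20 and 12 in ascending TGFβ, 1, 9 and 0 in descending control and 4, 6 and 3 in descending TGFβ libraries, so every ascending library lay above every descending one. The pooled count ratio, ascending over descending, was 6.47 (95% counting interval 3.30 to 14.1) in control and 3.22 (1.70 to 6.53) with TGFβ. Of the 10 counts in descending control 9 lay in replicate 2, and without that library the fitted log2 fold change in control moved from 2.73 to 5.13. *Hoxd9* had 0 to 3 counts in ascending control, 4 to 7 in ascending TGFβ and 0 to 2 in descending libraries.

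Per kilobase of exon, which allows levels of different genes to be compared, *Hoxa5* led in ascending control (9.22 ± 0.475 normalized CPM per kb), followed by *Hoxb4* (7.64 ± 0.733), *Hoxa4* (4.55 ± 0.654), *Hoxa3* (4.51 ± 0.0300) and *Hoxa2* (4.16 ± 0.375; SD, n = 3 each). The ranges of *Hoxa4*, *Hoxa3* and *Hoxa2* overlapped between neighbours. On exon bases free of other annotated genes *Hoxa3* (6.19) stood above *Hoxa4* (5.41) in ascending control. In ascending TGFβ the first 5 had the same order without overlap, from *Hoxa5* at 11.02 ± 0.962 to *Hoxa2* at 3.43 ± 0.156 per kb, but on exon bases free of other genes *Hoxa4* (7.02) and *Hoxa3* (6.15) overlapped. In descending TGFβ *Hoxc8* led (46.9 ± 2.10), then *Hoxa5* (33.2 ± 1.65), *Hoxb9* (27.4 ± 1.72), *Hoxc6* (25.1 ± 0.9499) and *Hoxb6* (20.4 ± 0.627 per kb), with *Hoxb9* and *Hoxc6* overlapping. In descending control *Hoxa5* (55.8 ± 27.0), *Hoxb8* (41.5 ± 40.9), *Hoxc8* (30.9 ± 5.83), *Hoxb6* (30.9 ± 8.01), *Hoxb9* (26.5 ± 3.71) and *Hoxc6* (26.1 ± 6.89 per kb) each overlapped the next, while every *Hoxa5* value lay above every value of *Hoxc8*, *Hoxb9* and *Hoxc6*. The place of *Hoxb8* in this order rested on replicate 3, at 234 normalized CPM against 48.0 and 46.3.

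Some markers of other cell types differed with site, and others overlapped. The adipocyte markers *Adipoq*, *Plin1* and *Fabp4* summed to at most 13.1 normalized CPM in ascending control and 72.8 to 105.7 in descending control, and to 2.04 to 2.60 and 23.2 to 41.9 with TGFβ, and *Plin1* was at or under the floor in ascending TGFβ libraries. The 6 macrophage and leukocyte markers summed to 53.1 to 342.8 in ascending control and 27.5 to 48.1 in descending control. Ascending control replicate 2 carried the upper end, with *Lyz2* at 291.7 against 38.9 and 42.4 in the other ascending controls. The 4 Schwann cell markers summed to 21.4 to 25.9 and 14.8 to 24.8, and *Sox10* had no count in the 6 descending libraries. The 6 smooth muscle markers summed to 1539 to 1655 in ascending and 2437 to 2518 in descending control. Most of that was *Acta2* (1489 ± 59.9 and 2312 ± 34.1, SD, n = 3 each). The 6 endothelial markers, mostly *Tek* (24.3 ± 1.21 and 24.2 ± 0.569, SD, n = 3 each), summed to 24.4 to 27.9 and 23.9 to 26.8. *Cldn5* was at or under the floor at both sites and *Cdh5* in ascending cells. The 5 mesothelial and epithelial markers summed to 32.9 to 42.7 and 6.90 to 13.1 with *Wt1* and *Epcam* at or under the floor. *Upk3b* was higher in ascending (33.7 against 0.860) and *Krt19* in descending control (3.71 against 10.02). The 4 cardiomyocyte markers summed to 5.90 to 7.75 and 0.545 to 1.39. In ascending control this was nearly all *Tnnt2* (6.59 ± 1.03 against 0.701 ± 0.476 in descending control), which the study names as a secondary heart field marker. *Actc1* went the other way (0.0312 against 0.237). *Myh6* was at or under the floor at both sites and *Actc1* and *Nppa* in ascending cells. The part of these cells in the HOX differences was not tested.

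The nearest genes outside the clusters lay 8.8 to 910.4 kb away. Of the 3 nearest protein coding genes on each side of each cluster, 19 of 24 could be tested, and their log2 fold changes between sites ran from -0.52 to 0.49 in control and from -0.24 to 0.29 with TGFβ. In control 0 of the 19, where 2.65% of all genes were called, passed edgeR's quasi-likelihood test, 1 had an unadjusted p under 0.05 and 0 passed DESeq2's Wald test, while without descending control replicate 3 edgeR called 5 (31.6% of all genes). With TGFβ 2 passed, where 36.3% of all genes did, *Snx10* (0.21) beside cluster A and *Mtx2* (0.29) beside cluster D.

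The second question was how HOX genes respond to TGFβ at each site. In ascending cells 3 of 12 tested members rose and 0 fell, where 55.8% of 13917 genes were called (28.2% up and 27.6% down). The median log2 fold change of the members tested was 0.15. In the same cells the macrophage and leukocyte markers summed to 53.1 to 342.8 normalized CPM in control and 29.3 to 41.4 with TGFβ (6 of 6 called lower). The smooth muscle markers summed to 1539 to 1655 and 5056 to 5151, with 4 called higher and 2 lower. *Acta2* made up most of that sum (1489 ± 59.9 and 4937 ± 47.2). *Myh11* fell from 24.1 ± 1.29 to 15.6 ± 2.78 and *Des* from 2.99 ± 0.358 to 1.18 ± 0.514 (SD, n = 3 each). In descending cells the macrophage and leukocyte sums were 27.5 to 48.1 in control and 14.8 to 26.9 with TGFβ (0 of 5 tested called). The smooth muscle sums were 2437 to 2518 and 7900 to 8325 there, with 2 of 6 called higher and 0 lower. They were mostly *Acta2* (2312 ± 34.1 and 7869 ± 236, SD, n = 3 each). The adipocyte sums were 72.8 to 105.7 and 23.2 to 41.9 there. The endothelial sums were 23.9 to 26.8 and 9.50 to 11.2 in descending cells, and 24.4 to 27.9 and 4.70 to 5.73 in ascending cells. *Tek* made up most of these sums, with means of 24.2 and 8.56 in descending and 24.3 and 4.13 in ascending cells. *Kdr* went the other way in descending cells, from 0.487 ± 0.478 to 1.47 ± 0.212. In ascending cells *Kdr* was at 0.700 ± 0.155 and 0.725 ± 0.206 (SD, n = 3 each). In ascending cells the Schwann sums were 21.4 to 25.9 and 14.9 to 15.7. The mesothelial and epithelial sums were 32.9 to 42.7 and 19.6 to 26.5 there, and the cardiomyocyte sums, mostly *Tnnt2*, 5.90 to 7.75 and 3.27 to 3.70. In descending cells the Schwann sums were 14.8 to 24.8 and 10.8 to 12.1, while those of the mesothelial and epithelial and the cardiomyocyte markers overlapped. The part of these cells in the HOX responses was not tested. *Hoxa5* rose from 17.3, 16.4 and 18.2 to 20.3, 19.1 and 22.7 normalized CPM (log2 fold change 0.25, SE 0.08, adjusted p = 0.0126 by edgeR's quasi-likelihood test). *Hoxa4* rose from 6.04, 7.90 and 7.80 to 10.03, 8.47 and 9.70 (0.37, SE 0.13, adjusted p = 0.0271) and *Hoxb2* from 3.91, 3.80 and 3.85 to 4.75, 6.34 and 5.46 (0.51, SE 0.16, adjusted p = 0.0132). Among the members tested, every TGFβ library lay above every control library for these 3 genes and *Hoxb6*, and under it for *Hoxa2*, *Hoxa7* and *Hoxd8*. Of all genes tested, 31.3% and 30.1% did so. *Hoxd9*, too low to be tested, also lay above. The 3 called changes were all under 1.5-fold on the linear scale of the means. The 9 others tested had log2 fold changes from -0.54 (*Hoxd8*) to 0.34 (*Hoxb5*). With the 12 libraries in one fit 0 members and 2338 genes in all were called, against 7767 genes above. DESeq2's Wald test called 1 member and 6759 genes, and without ascending TGFβ replicate 3 edgeR called 1 member and 7146 genes.

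In descending cells 1 of 21 tested members was called, where 8.07% of 13825 genes were called (3.59% up and 4.48% down). *Hoxc5* rose from 8.10, 7.07 and 6.62 to 12.5, 11.98 and 13.1 normalized CPM, a log2 fold change of 0.78 (SE 0.17, adjusted p = 0.0467). Leaving out descending control replicate 1 or 2, or any descending TGFβ library, left 0 called. *Hoxc8* had every TGFβ value, 127 to 138, above every control value, 75.8 to 106 (log2 fold change 0.59, SE 0.17, adjusted p = 0.0930). *Hoxb5* had every TGFβ value, 10.8 to 13.7, under every control value, 17.7 to 19.6 (-0.59, SE 0.16, adjusted p = 0.0854). *Hoxb2* also had every TGFβ value above every control value (0.96, SE 1.17, and 1.65 without descending control replicate 2), and *Hoxa2*, *Hoxa3*, *Hoxa5*, *Hoxa9*, *Hoxb6* and *Hoxb8* had every TGFβ value under every control value without passing the test (log2 fold changes of -0.75, -0.51, -0.76, -1.02, -0.60 and -1.67). Of all genes tested, 24% had every TGFβ value above and 19.5% under every control value.

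**Figure D4:**
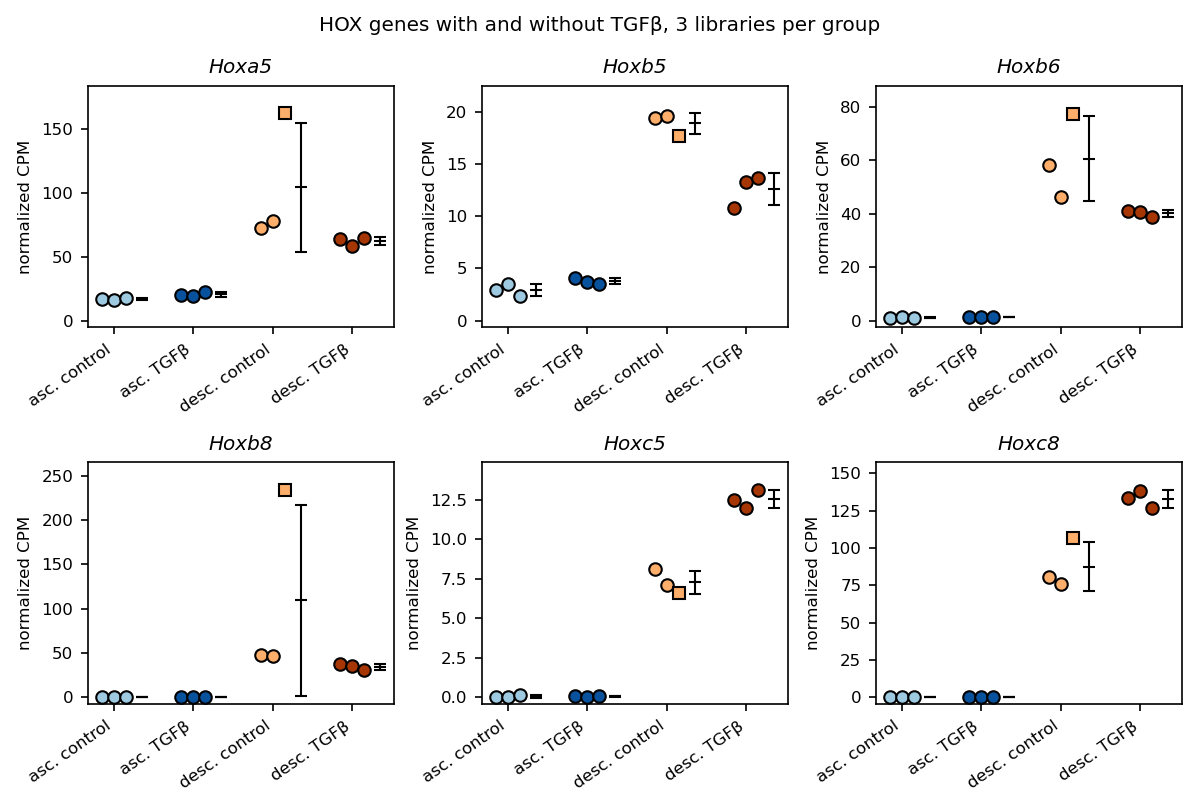
Points are normalized CPM of single libraries in the 4 groups for 6 HOX genes, with the mean and SD (n = 3) to the right, and the square is descending control replicate 3. *Hoxc5* and *Hoxc8* lie higher with TGFβ in descending cells and near 0 in ascending cells, *Hoxb5* lies lower with TGFβ in descending cells, and the square carries the spread of *Hoxa5* and *Hoxb8*.

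The count in descending cells rested on replicate 3 of the descending controls. Without it 15 of 21 members were called, 6 up and 9 down, where 52.9% of all genes were called. The 6 that rose were *Hoxb2* (log2 fold change 0.40), *Hoxb9* (0.16), *Hoxc5* (0.73), *Hoxc6* (0.19), *Hoxc8* (0.77, SE 0.06, adjusted p = 1.30e-12 by edgeR's quasi-likelihood test) and *Hoxc13* (1.51). The 9 that fell were *Hoxa2* (-0.74), *Hoxa3* (-0.43), *Hoxa5* (-0.27), *Hoxa6* (-0.78), *Hoxa7* (-0.28), *Hoxa9* (-0.75), *Hoxb5* (-0.62), *Hoxb6* (-0.38) and *Hoxb8* (-0.45). In those 5 libraries 6 of the 7 tested members of cluster A fell and none rose, while 4 of the 6 tested members of cluster C rose and none fell. The summed level of cluster A stood at 191.0 to 274.1 normalized CPM in descending control and 149.0 to 155.0 in descending TGFβ libraries, that of cluster B, whose members went both ways, at 241.9 to 481.4 and 226.1 to 233.3, and that of cluster C at 149.1 to 212.4 and 214.2 to 226.9. These ranges did not overlap within any of the 3 clusters.

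**Figure D5:**
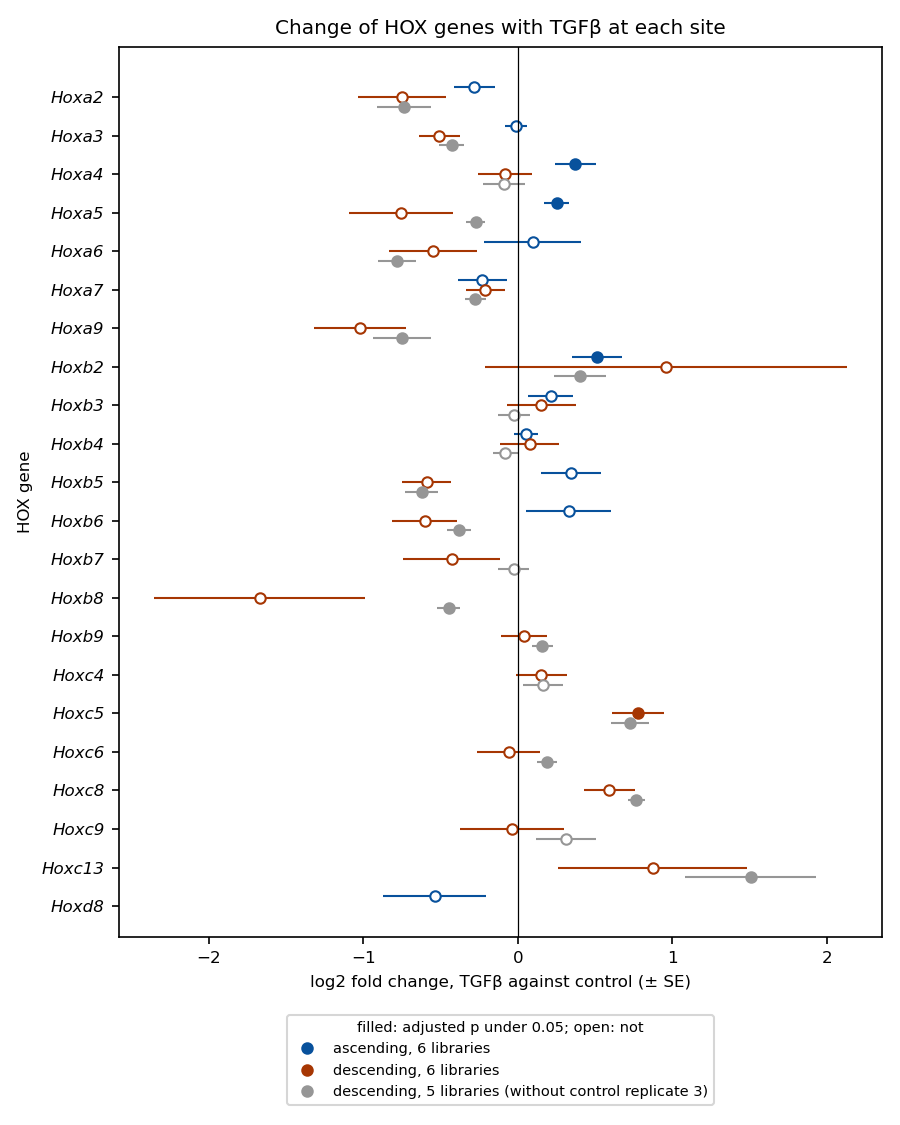
Points give the log2 fold change of TGFβ against control with its SE for each HOX member tested, in ascending cells (blue), descending cells (brown) and descending cells without control replicate 3 (grey), filled where the adjusted p is under 0.05. Leaving out that library narrows the error bars of *Hoxa5*, *Hoxb2* and *Hoxb8*, and the filled grey points of cluster A lie under 0 and those of cluster C above 0.

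The third question was whether the response differs between sites. None of 22 tested members passed the interaction of site and TGFβ in edgeR's quasi-likelihood test, where 0.806% of 14637 genes did (0.321% more positive and 0.485% more negative in ascending cells), and 4 had an unadjusted p under 0.05. These were *Hoxa3*, *Hoxa5*, *Hoxb5* and *Hoxb6*, with interaction log2 values (ascending minus descending response) of 0.49 (SE 0.15), 1.00 (SE 0.36), 0.93 (SE 0.23) and 0.93 (SE 0.27). DESeq2's Wald test called *Hoxb5*. Without descending control replicate 3, *Hoxa3* (0.42), *Hoxa5* (0.53), *Hoxa6* (0.89) and *Hoxb5* (0.97) were called, where 13.5% of all genes were. For the genes without counts in ascending cells, no response there can be measured and the interaction says nothing.

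The regulators and partners of HOX genes were read from lists of genes known for these roles, by edgeR's quasi-likelihood test. All 9 TALE cofactors were tested. In control 0 differed between sites, with 1 at an unadjusted p under 0.05, 1 called by DESeq2's Wald test and 5 called by edgeR without descending control replicate 3, where 31.6% of all genes were. With TGFβ 5 differed (55.6%, where 36.3% of all genes were called), 2 higher in ascending and 3 in descending cells. *Meis2*, a HOX cofactor gene, was at 90.1 ± 3.00 normalized CPM in ascending and 43.6 ± 0.352 in descending TGFβ libraries (SD, n = 3 each; log2 fold change 1.05, SE 0.05). In ascending cells 8 of the 9 changed with TGFβ, where 55.8% of all genes did, with *Pbx3* up (0.31) and 7 down, among them *Meis2* (-0.42) and *Meis1* (-0.50). In descending cells 0 were called, with 2 at an unadjusted p under 0.05, 0 called by DESeq2 and 5 called by edgeR without control replicate 3, where 52.9% of all genes were.

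The 16 Polycomb genes, which keep HOX clusters closed, and the 6 Trithorax-type genes, which keep them open, were all tested. In control 0 of either list differed between sites by edgeR's quasi-likelihood test or DESeq2's Wald test, with 4 Polycomb and 0 Trithorax-type genes at an unadjusted p under 0.05, and without descending control replicate 3 edgeR called 9 and 1 (31.6% of all genes). With TGFβ 5 Polycomb genes differed (31.2% of those tested, where 36.3% of all genes were called), 2 higher in ascending and 3 in descending cells. Of the 2, the methyltransferase gene *Ezh2* was at 27.95 ± 2.05 normalized CPM in ascending and 12.9 ± 0.653 in descending libraries (log2 fold change 1.11, SE 0.08). The 1 Trithorax-type gene called (16.7%), the demethylase gene *Kdm6b* (-0.34, SE 0.05), was higher in descending cells. In ascending cells 5 Polycomb genes rose and 7 fell with TGFβ (28.2% of all genes rose and 27.6% fell), among them *Cbx2* from 12.3 ± 0.995 to 3.75 ± 0.186 (-1.72, SE 0.13), and 1 Trithorax-type gene rose and 4 fell. In descending cells 0 of either list were called by edgeR or DESeq2, with 2 of each at an unadjusted p under 0.05, and without control replicate 3 edgeR called 12 Polycomb and 5 Trithorax-type genes (52.9% of all genes). Of 12 upstream and neighbouring homeobox genes, 10 were too low to be tested in any comparison, among them the *Cdx* genes, which act upstream of posterior HOX genes. *Meox1* had no count in ascending control and was at 2.07 ± 0.594 normalized CPM in ascending TGFβ libraries, while *Meox2* was at 1.16 ± 0.127 and 0.114 ± 0.119. In descending control and TGFβ libraries *Meox1* was at 0.222 ± 0.217 and 0.512 ± 0.168 and *Meox2* at 2.98 ± 3.94 and 0.0338 ± 0.0295 (SD, n = 3 each). Replicate 3 carried the descending control mean of *Meox2*, with values of 0.506, 0.911 and 7.52. Its replicates 1 and 2 lay under every ascending control value (1.07 to 1.30).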

How the data were processed

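RNA from 12 cultures was sequenced by the authors, who list FastQC, STAR, featureCounts and DESeq2 with mm10 in their methods and processing notes. Tool versions, strand and multi-mapping settings are not given in the sources used here. The deposited values are raw counts per gene symbol. Of 54352 symbols, 53753 (98.9%) matched GENCODE vM21, used for coordinates and exon lengths. The members and lists were chosen with earlier results of these data known. 1 gene that matches the symbol rule is not reported here.

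Counts were fitted in R 4.3.3 with edgeR 4.0.16 (TMM, filterByExpr with count and total minimums of 10 and 15, quasi-likelihood F-test, Benjamini-Hochberg adjusted p under 0.05 over all genes), on the groups compared only, or on 12 libraries for the interaction. SE is the absolute log2 fold change over the square root of F. Positive values mean higher in ascending cells or with TGFβ. Nothing states that cultures came from separate animals, so p-values measure the spread between these samples. Libraries held 16250126 to 23892943 counts. Pooled ratios carry exact 95% intervals, and a fold against libraries without counts uses a floor of 3 counts per library. The script was tested on simulated data. Single-library values were given for members called in at least 1 comparison or over the floor at one site only, and the other members by counts and ranges. Ascending values of members of clusters A to C near or under the floor were also given as counts or ranges. Of other lists genes called in at least 1 comparison could be named, those with the smallest p first. The *Cdx* genes and the cell type markers were named outside this rule. The 250 bases before each start came from RefSeq, and the TAAT motif was added after the data were seen. Alternatives were DESeq2 1.42.0, its size factors, no filter, a replicate block, all libraries in one fit and leaving out each library. For the lists, DESeq2 and the fit without descending control replicate 3, and for the members the counts and medians over those read at both sites, were chosen after seeing the data.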

Additional observations from a re-analysis of the deposited data

Results flagged for a closer look

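*Hoxa5* and *Hoxb6* stood out because the sites moved in opposite directions: every ascending library was higher with TGFβ than every ascending control, and every descending library lower. Of all genes tested, 31.3% were higher without overlap in ascending cells and 19.5% lower in descending cells. The share of all genes that did both was not counted. The interaction (ascending minus descending response, log2) was 1.00 for *Hoxa5* (SE 0.36, adjusted p = 0.359 by edgeR's quasi-likelihood test) and 0.93 for *Hoxb6* (SE 0.27, adjusted p = 0.191), so neither passed. Without descending control replicate 3 the values were 0.53 (adjusted p = 0.000523) and 0.72 (adjusted p = 0.0561), in a fit that called 13.5% of all genes.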

How the results depend on the processing

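Replicate numbers did not pair the libraries (correlation of deviations from group means -0.0308 to 0.0941 over 18 same-numbered pairs, 0 over 0.1). With the replicate block, members called between sites in control fell to 0 (all genes 0) and with TGFβ in descending cells to 0, and the block left the other counts of members at 19, 3 and 0.

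Members called between sites in control ranged from 6 to 18 when one library was left out, and with TGFβ from 18 to 19. For TGFβ in ascending cells DESeq2's Wald test called 1, the fit of 12 libraries 0, and leaving out one library 1 to 3. For TGFβ in descending cells DESeq2 called 5, the fit of 12 libraries 5, no filter 0, and leaving out one library 0 to 15. For the interaction DESeq2 called 1 and leaving out one library 0 to 4. Counts over all genes moved further: between sites in control 1034 by DESeq2, 1545 in the fit of 12 libraries and 33 to 4631 with one library left out; 1106 between sites with TGFβ and 2338 for TGFβ in ascending cells in the fit of 12 libraries; for TGFβ in descending cells 2242 by DESeq2, 3570 in the fit of 12 libraries, 95 with the replicate block and 213 to 7576 with one library left out; and for the interaction 419 by DESeq2, 56 without a filter, 50 with the replicate block and 25 to 2022 with one library left out. The cause was not tested.

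The sign turned when one library was left out for *Hoxb2* between sites in control (-0.35 without descending control replicate 3, range -0.35 to 0.91), *Hoxa2* between sites with TGFβ (-0.090 without descending TGFβ replicate 3, range -0.090 to 0.40), *Hoxb9* with TGFβ in descending cells (-0.049 without descending control replicate 2, range -0.049 to 0.16) and *Hoxc6* there (0.19 without descending control replicate 3, range -0.16 to 0.19). Of 66 levels per kilobase, 23 moved by more than the SD between libraries when only exon bases free of other genes were used, and 1 with DESeq2's size factors.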
